A study of Mus musculus with 2 samples.

Results

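The genes described here control how much free phosphate and how much pyrophosphate surround a mineralising cell. They are Alpl, Smpd3, Enpp1, Ank, Slc20a1, Slc20a2, Mgp and Entpd3, grouped under phosphate release, pyrophosphate supply, phosphate import and inhibition of mineral growth. The choice was made with earlier results of these data known. Of these 8 genes, 7 had at least 1 probe set that the platform annotation pairs with that gene alone, 12 probe sets in all among 34945 of that kind. Enpp1 was not analysed here. Signals came from Affymetrix arrays of unsorted mouse bone marrow cells, 1 array for wildtype mice and 1 for Cpdm mice. Cpdm is a spontaneous mutant line without functional SHARPIN, part of the enzyme complex that builds linear ubiquitin chains. Both cultures grew for 10 days with β-glycerophosphate at 10 mM and ascorbic acid at 50 µg/ml and, per the labels, had no other treatment. The sources used here do not give the sex, age or number of the mice. With 1 array per genotype there was no replicate error and no test, so each difference describes this pair of arrays.

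Bone mineral is a calcium phosphate that osteoblasts lay down from matrix vesicles and along collagen. Tissue-nonspecific alkaline phosphatase frees phosphate and destroys pyrophosphate, a small molecule that blocks crystal growth, whereas ENPP1 and ANK add to the pyrophosphate outside the cell. Sodium-dependent transporters of the SLC20 family carry phosphate into cells, and matrix Gla protein holds mineral back in soft tissue. β-Glycerophosphate in the medium is an organic phosphate from which alkaline phosphatase releases the free ion.

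The enzymes Alpl, Smpd3 and Entpd3 had lower signals in the Cpdm culture, by between 11.7-fold and 31.7-fold by their brightest probe sets. The other Smpd3 probe sets were 4.78-fold and at least 1.42-fold lower in that culture. The inhibitor Mgp was 4.94-fold higher there. The importers Slc20a1 and Slc20a2 were 4.27-fold and 3.03-fold higher by their brightest probe sets, but a second Slc20a1 probe set was near equal and the second Slc20a2 probe set was 1.70-fold lower. Ank was 1.86-fold higher and stayed under the 2-fold size rule. By their brightest probe sets, 3 of 7 members were at least 2-fold lower and 3 were at least 2-fold higher, and with the mean over probe sets 3 were lower and 1, Mgp, was higher. Over all 14055 measured genes these shares were 5.98% lower and 5.84% higher. The members were chosen with earlier results of these data known, so these counts carry no test. A gene counted as measured when its signal reached a floor, the 40th percentile of the array, in either array, and its brightest probe set stood for it. The floor was 18.5 for Cpdm and 18.7 for wildtype.

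**Figure D1:**
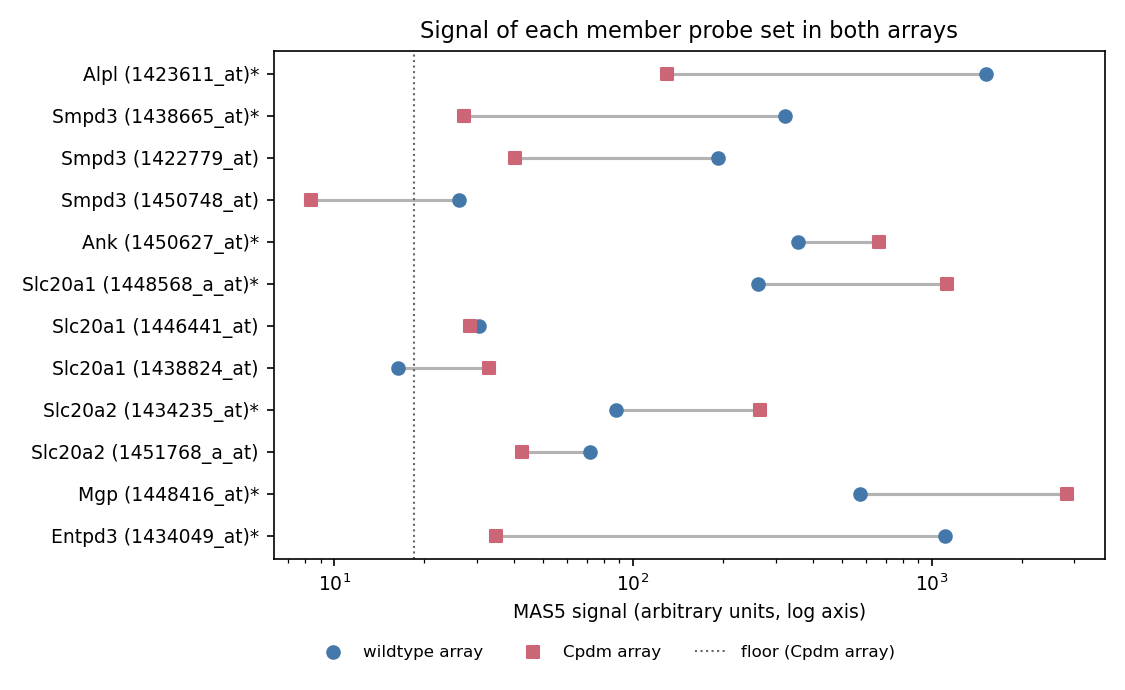
MAS5 signal on a log axis for the 12 probe sets of the members, with a circle for the wildtype array, a square for the Cpdm array and a dotted line at the Cpdm floor of 18.5. An asterisk marks the probe set that represents the gene. Alpl, Smpd3 and Entpd3 lie to the left in Cpdm, Mgp and the starred importer probe sets lie to the right, and the unstarred probe sets of Slc20a1 and Slc20a2 lie in the lower part of the scale.

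The only errors that could be judged were technical. The probe sets of the hybridisation spike-ins, foreign transcripts added to each sample, had log2 ratios of 0.01 ± 0.11 (SD, n = 18 probe sets). Several of these probe sets read the same transcript. The spread between probe sets of one gene gave a robust SD of the log2 ratio per probe set. It was 0.42 where the second one read under 64, 0.31 between 64 and 200, and 0.21 above that. Differences between probe sets of a gene spread wider than this. Several other quantities differed between the arrays, and their part in the differences was not tested. The log2 ratios of the 18S ribosomal RNA controls were -3.75, -2.59 and -2.37. Among genes that differ by sex, Xist read 1113 in Cpdm and 247 in wildtype, a log2 ratio of 2.17. Kdm5d, Eif2s3y and Uty on the Y chromosome had log2 ratios of -1.62, -1.63 and -1.92. A difference in the sex mix of the cultures cannot be told apart from genotype here.

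Alpl encodes tissue-nonspecific alkaline phosphatase, the enzyme whose activity is the usual marker of mineralising osteoblasts. Its single probe set read 130 in Cpdm and 1518 in wildtype. The Cpdm signal was thus 8.56% of the wildtype signal, a log2 ratio of -3.55. Both signals lay well above the floor, and only 54 of 14055 measured genes had a ratio as low or lower. The other alkaline phosphatase genes, Alpi, Akp3 and Alppl2, are the intestinal and embryonic types. Their signals were between 11.1 and 52.1 and their log2 ratios between -0.36 and -0.20, so they were dim in both arrays and none passed 2-fold.

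Smpd3 encodes neutral sphingomyelinase 2, which splits sphingomyelin in cell membranes and releases phosphocholine, a source of phosphate in matrix vesicles. The probe set 1438665_at read 27.1 in Cpdm and 323 in wildtype, which is 11.9-fold lower. The probe set 1422779_at read 40.2 and 192, which is 4.78-fold lower. The third, 1450748_at, read 8.37 and 26.2, below the floor in Cpdm, which is at least 1.42-fold lower. All 3 probe sets pointed the same way, and the first 2 differed in size by 1.32 log2 units, so the size of the fold depended on the probe set. A Cpdm signal of 27.1 lies close to the floor of 18.5, and the log2 ratio of -3.58 became -2.91 with a floor at the 60th percentile.

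Entpd3 encodes an ectonucleotidase, an enzyme on the cell surface that strips phosphate groups from ATP and ADP. Its single probe set read 34.8 in Cpdm and 1105 in wildtype, which is 31.7-fold lower and the largest difference among the members. The log2 ratio was -4.99, and 7 of 14055 measured genes were as low or lower, Entpd3 included. The wildtype signal was far above the floor and the Cpdm signal less than 2-fold above it. The 5 other measured Entpd genes had log2 ratios between -0.60 and 0.59, with signals between 42.0 and 344, and none passed 2-fold.

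Ank encodes the progressive ankylosis membrane protein, which raises the amount of pyrophosphate outside the cell. Its single probe set read 664 in Cpdm and 356 in wildtype, a log2 ratio of 0.90. The spike-ins had log2 ratios between -0.22 and 0.20, and the robust SD per bright probe set was 0.21. Both cover the arrays and not the spread between cultures. Of all measured genes, 7.60% had a ratio as high or higher.

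Slc20a1 encodes PiT-1, a sodium-phosphate cotransporter that also serves as a retrovirus receptor. The probe set 1448568_a_at read 1122 in Cpdm and 263 in wildtype, which is 4.27-fold higher. The probe set 1438824_at read 33.0 and 16.3, below the floor in wildtype, which is at least 1.76-fold higher. The third, 1446441_at, read 28.4 and 30.5 and was near equal. The bright probe set and 1 of the dim ones were thus higher in Cpdm, while the remaining one was not, and the mean log2 ratio over the 3 probe sets was 0.94, just under 2-fold.

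Slc20a2 encodes PiT-2, the second transporter of this family. The probe set 1434235_at read 266 in Cpdm and 87.7 in wildtype, which is 3.03-fold higher. The probe set 1451768_a_at read 42.4 and 71.9, which is 1.70-fold lower. The probe sets thus pointed in opposite directions and lay 2.36 log2 units apart, and their mean log2 ratio was 0.42. Among 514 genes past 2-fold whose second probe set was also above both floors, 54 had that one of opposite sign, and the direction of Slc20a2 is uncertain here. The 3 measured genes of the other sodium-phosphate family, Slc34a1, Slc34a2 and Slc34a3, which act mainly in kidney, gut and lung, read between 33.5 and 56.8, with log2 ratios between 0.01 and 0.47.

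Mgp encodes matrix Gla protein, a small vitamin K-dependent protein of cartilage and vessel wall that binds calcium through modified glutamates. Its single probe set read 2835 in Cpdm and 574 in wildtype, which is 4.94-fold higher. The log2 ratio was 2.31, and 56 of 14055 measured genes were as high or higher. Both signals were bright, so neither the floor nor the scaling moved this ratio outside 2.27 to 2.33. Mgp is also a gene of smooth muscle and cartilage. Of 5 smooth muscle markers, Tagln and Cnn1 were at least 2-fold higher in Cpdm, Des was at least 2-fold lower, Acta2 lay between and the defining gene Myh11 was below the floor in both arrays. The summed signal of those 5 genes was 5914 in Cpdm and 2790 in wildtype. Of 6 chondrocyte markers, Comp and Col2a1 were at least 2-fold lower, while Sox9, Col9a1 and Matn3 had log2 ratios between 0.13 and 0.63, the latter pair with wildtype at the floor, and the median was -0.29. Their summed signal was 246 and 1164, of which Comp alone gave 54.9 and 845. The part of either cell type in the Mgp difference was not tested.

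**Figure D2:**
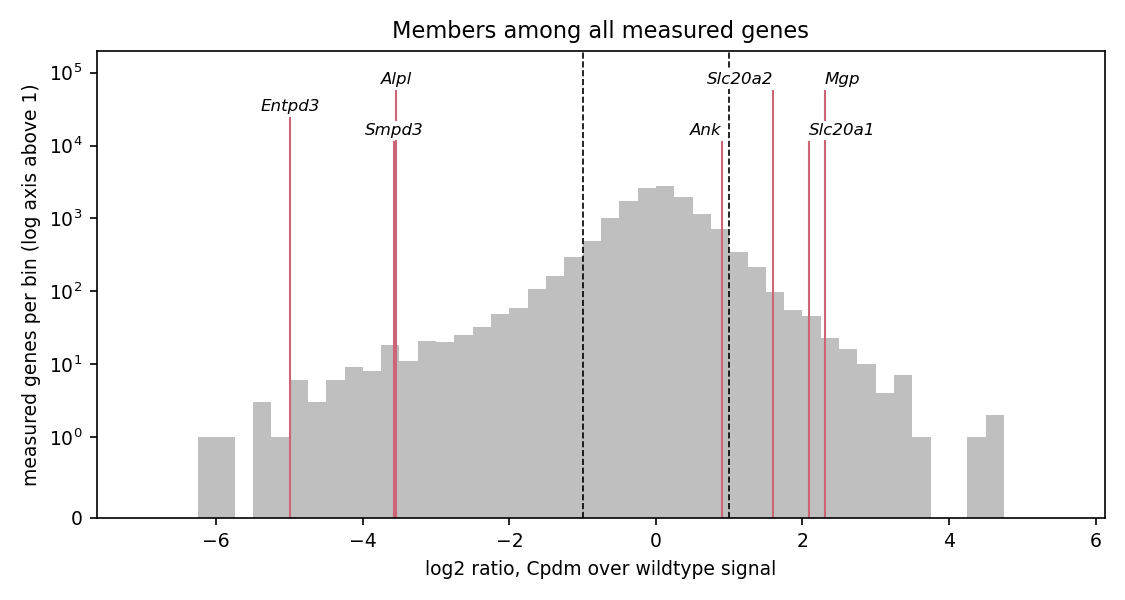
Number of measured genes per bin of 0.25 log2 units, on an axis that is logarithmic above 1, against the log2 ratio of Cpdm over wildtype signal. Vertical red lines mark the 7 members and dashed lines mark 2-fold; Entpd3, Smpd3 and Alpl lie in the far lower tail and Mgp and Slc20a1 in the upper tail.

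Start-site sequences are shown for Alpl and Entpd3, from the lower side, and for Slc20a1, from the higher side, because these members passed 2-fold in opposite directions. RefSeq promoter windows, from 250 bases before to 50 after a start site on GRCm38.p6, were given for 5 of the 8 members. The windows of Alpl, Entpd3, Slc20a1 and Ank were searched on both strands, and that of Enpp1 was not. The motifs were TGTGGT, the core of the motif of the osteoblast factor RUNX2 and its relatives, and GGGCGG, the GC box of the SP family. Capitals mark matches in either orientation, and each sequence reads along the gene.
Alpl, chr4:137796335-137796634, minus strand: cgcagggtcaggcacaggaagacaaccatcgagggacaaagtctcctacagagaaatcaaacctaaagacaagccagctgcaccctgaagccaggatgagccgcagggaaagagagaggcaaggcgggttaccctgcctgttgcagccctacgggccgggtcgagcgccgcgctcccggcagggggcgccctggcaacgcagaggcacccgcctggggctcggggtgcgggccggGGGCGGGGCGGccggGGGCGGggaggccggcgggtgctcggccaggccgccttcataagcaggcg
Entpd3, chr9:120539568-120539867, plus strand: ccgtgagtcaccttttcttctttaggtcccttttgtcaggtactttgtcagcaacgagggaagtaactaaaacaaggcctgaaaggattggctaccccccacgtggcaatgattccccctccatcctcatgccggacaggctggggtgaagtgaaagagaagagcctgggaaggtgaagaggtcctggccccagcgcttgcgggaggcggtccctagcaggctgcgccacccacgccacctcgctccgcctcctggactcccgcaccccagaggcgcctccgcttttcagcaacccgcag
Slc20a1, chr2:129198523-129198822, plus strand: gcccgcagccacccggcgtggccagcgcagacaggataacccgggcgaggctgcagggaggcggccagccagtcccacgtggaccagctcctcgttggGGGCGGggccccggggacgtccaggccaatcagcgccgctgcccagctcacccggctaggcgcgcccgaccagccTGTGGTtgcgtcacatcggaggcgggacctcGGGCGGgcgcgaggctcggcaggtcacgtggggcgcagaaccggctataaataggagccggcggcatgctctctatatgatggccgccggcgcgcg
The Alpl window held 3 GC boxes and no RUNX core, and its first 2 GC boxes, 15 and 10 bases before the start, overlap by 1 base. The Entpd3 window held neither motif, and the Ank window, not printed here, held 2 GC boxes and no RUNX core. The Slc20a1 window held 2 GC boxes and, 77 bases before the start, 1 RUNX core, with no overlap between them. At the alternative start sites, the Alpl window held neither motif and the Slc20a1 window held 1 GC box on the reverse strand. Over all 32851 promoter windows of this length, 16.8% held the RUNX core and 35.7% the GC box. These matches are descriptions of short letters, and no binding was measured.

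Other genes of phosphate and pyrophosphate handling were read from 6 lists of 78 genes, of which 63 were measured. Of these 63 genes, 14 (22.2%) were at least 2-fold lower in Cpdm, against 5.98% of all measured genes, and 1 (1.59%) was at least 2-fold higher, against 5.84%. Their median log2 ratio was -0.28, and that of all measured genes was 0.03. The lists were drawn up with earlier results of these data known, so these shares carry no test.

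**Figure D3:**
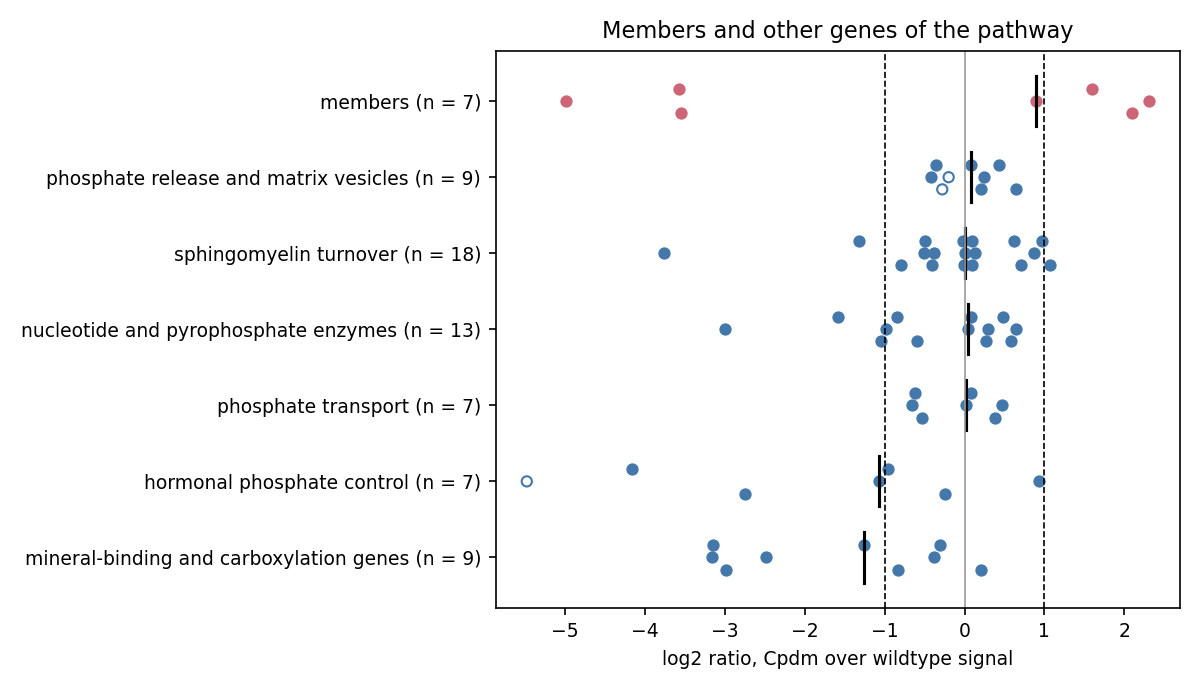
Log2 ratio of Cpdm over wildtype signal for the 7 measured members (red) and the measured genes of 6 other lists (blue), with a black bar at each median; open circles are bounds from a signal at the floor, and dashed lines mark 2-fold. The medians of the hormonal and mineral-binding lists lie below -1, while those of the other 4 lists lie near 0.

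Among genes of phosphate release and matrix vesicles, the 9 measured genes all lay within 2-fold, with a median log2 ratio of 0.08. They included 6 annexins, calcium- and membrane-binding proteins found in matrix vesicles, with log2 ratios between -0.42 and 0.64. Anxa5 read 2625 in Cpdm and 2477 in wildtype. The vesicle phosphatase gene Phospho1 was not analysed here. By their brightest probe sets, the annexins thus did not share the size of difference seen for Alpl and Smpd3. Anxa1, Anxa2 and Anxa5 were very bright, up to 4035 against a highest signal of 5156, so their ratios can be compressed. Anxa4, Anxa6 and Anxa7 were less bright, with Anxa6 at 302 and 255. Further probe sets of Anxa2, Anxa4, Anxa6 and Anxa7 had the opposite sign.

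Sphingomyelin turnover had a median log2 ratio of 0.00 over 18 genes, with 2 at least 2-fold lower and 1 higher. Sgms2, which makes the sphingomyelin that neutral sphingomyelinase splits, read 190 in Cpdm and 2592 in wildtype, which is 13.6-fold lower. A second Sgms2 probe set read 73.8 and 786, a log2 ratio of -3.41. Sgms2 and Smpd3, a synthase and a hydrolase of the same lipid, were therefore both lower by more than 10-fold by their brightest probe sets. Smpd1 and Smpd2, the acid and the first neutral sphingomyelinase, had log2 ratios of -0.80 and -0.49 and lay within 2-fold. Smpdl3b was 2.50-fold lower, at 28.0 against 70.0. Sphk2, a sphingosine kinase, was 2.09-fold higher by 1 probe set and near equal by the other, at 56.2 against 58.0.

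Among 13 measured genes of nucleotide and pyrophosphate enzymes, 3 were at least 2-fold lower and none higher, with a median of 0.04. All 3 belonged to the Enpp family, relatives of Enpp1 that split nucleotides or lipids. Enpp5 read 47.2 in Cpdm and 376 in wildtype, which is 7.97-fold lower. Enpp6, a phosphodiesterase of choline-containing lipids, read 22.6 and 68.0, and Enpp4 read 72.3 and 149, with a second Enpp4 probe set at a log2 ratio of -0.31. The other measured relative, Enpp3, read 36.9 and 23.7, a log2 ratio of 0.64, with a further probe set of opposite sign. Nt5e, the CD73 enzyme that makes adenosine from AMP, had log2 ratios of -0.85, -1.08 and 0.15 by its 3 probe sets, the latter pair with 1 array at the floor. The cytosolic pyrophosphatase gene Ppa1 read 495 and 982, a log2 ratio of -0.99, and the mitochondrial Ppa2 was near equal at 200.5 and 189. Abcc6, a transporter that supports pyrophosphate supply mainly from liver, lay below the floor in both arrays.

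Of 7 measured phosphate transport genes none passed 2-fold, and the median log2 ratio was 0.01. The phosphate exporter gene Xpr1 had 4 probe sets that exceeded both floors, all lower in Cpdm, with log2 ratios between -0.66 and -0.23. Export was thus represented by small differences on the lower side. The bright probe set of the importer gene Slc20a1 was 4.27-fold higher, but its mean log2 ratio over probe sets was 0.94. The probe sets of the importer gene Slc20a2 pointed in opposite directions.

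Of 7 measured genes of hormonal phosphate control, 4 were at least 2-fold lower and none higher, with a median log2 ratio of -1.08. Phex, an endopeptidase of osteoblasts and osteocytes whose loss wastes phosphate through excess FGF23, was below the floor in Cpdm, at 9.66 against 825. Galnt3, a glycosyltransferase that protects FGF23 from cleavage, read 103 and 693, which is 6.73-fold lower, and its other 2 probe sets were lower with the Cpdm signal at the floor. The parathyroid hormone receptor gene Pth1r read 81.7 and 1460. The vitamin D receptor gene Vdr was 2.11-fold lower, at 34.0 against 71.7, with a second probe set at the floor in Cpdm and a log2 ratio of -0.23. The hormone gene Fgf23 itself was near the floor in both arrays, at 21.7 and 25.6.

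Of 9 measured mineral-binding and carboxylation genes, 5 were at least 2-fold lower and none higher, with a median of -1.26. Dmp1 and Mepe, matrix phosphoproteins of osteocytes, had log2 ratios of -2.98 and -3.17, and Fetub, a relative of the calcium-binding serum protein fetuin-A, had -3.15. Ggcx, the vitamin K-dependent carboxylase that modifies matrix Gla protein, read 43.6 in Cpdm and 244 in wildtype, which is 5.59-fold lower. A second Ggcx probe set read 12.6 and 64.9, with the Cpdm signal below the floor. Vkorc1l1, which recycles vitamin K, was 2.39-fold lower by 1 probe set and had a log2 ratio of -0.24 by the other, and the related Vkorc1 read 1422 and 2541. Ggcx was thus lower in the array where Mgp, whose protein it modifies, was higher. Spp1, the osteopontin gene, was not analysed here.

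Markers of cell types were read beside these groups, and their part in the differences was not tested. Of 7 measured osteoblast markers, 5 were at least 2-fold lower and none higher, with a median log2 ratio of -2.90 and a summed signal of 8303 in Cpdm and 17931 in wildtype. The bright markers Ibsp (3159 and 4130) and Col1a2 (3408 and 3432) lay within 2-fold, with log2 ratios of -0.39 and -0.01. Their signals lie not far below the highest of any non-control probe set, 5156, and ratios of very bright signals can be compressed. Dmp1, Pth1r and Ibsp stand in this list and in the lists above. Fewer osteoblasts and less of each transcript per cell cannot be told apart in RNA from a whole culture. Of 10 macrophage markers none passed 2-fold, 9 were above 0, and the summed signal was 29282 and 23409. Several were also very bright, C1qb for example at 3959 and 2926, so their ratios can be compressed too. Of 8 stromal fibroblast markers, Dcn and Pdgfra were at least 2-fold lower, with log2 ratios of -1.30 and -1.23, Col3a1 was at least 2-fold higher at 1.03, and 5 lay between. Their median was 0.14 and their summed signal 12261 in Cpdm and 11345 in wildtype, so the stromal markers went both ways. Of the endothelial markers, Pecam1, Cdh5, Tek and Emcn lay below the floor in both arrays, and only Kdr was measured. Neutrophil and adipocyte markers had medians of -0.56 over 5 and -0.47 over 4 measured genes, and in them only Ltf passed 2-fold.

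**Figure D4:**
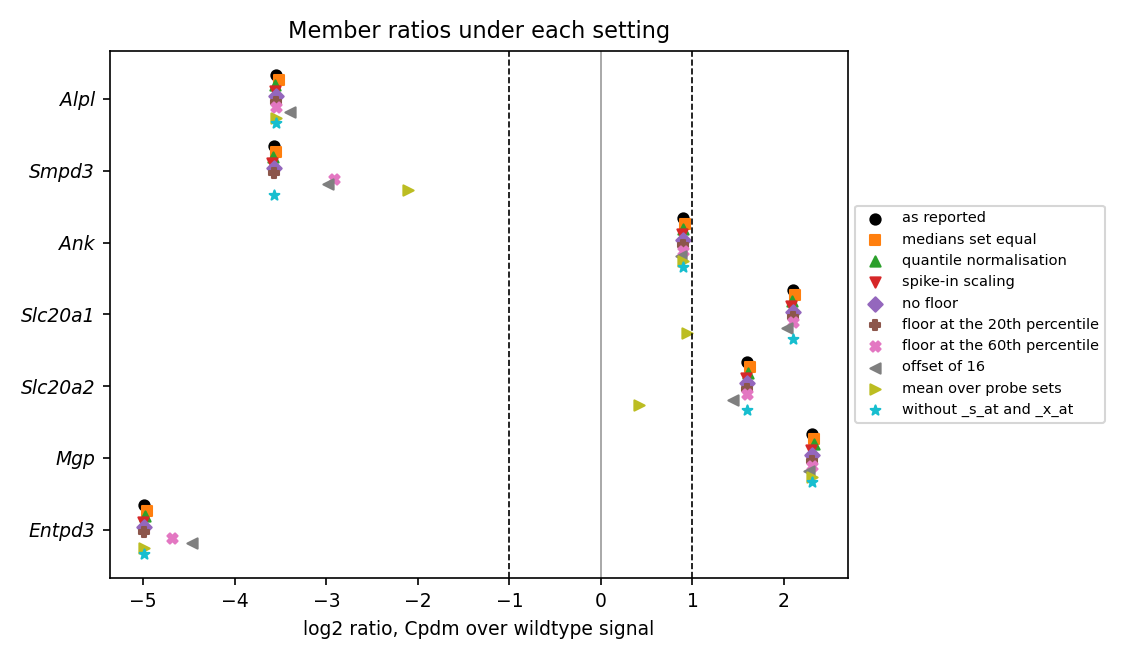
Log2 ratio of Cpdm over wildtype signal for each member as reported (black) and under 9 other settings (coloured symbols), with dashed lines at 2-fold. Alpl, Ank and Mgp stay in place, Smpd3 and Entpd3 shift towards 0 with a higher floor or an offset but remain below -2, and both importers fall under 2-fold when their probe sets are averaged.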

How the data were processed

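RNA from 1 wildtype and 1 Cpdm culture was hybridised to 1 Affymetrix array each, from 5 µg of total RNA per the labels' protocols. The authors deposited a table of linear MAS5 signal intensity values, made with GCOS 1.4 and MAS5 per the submitters' processing notes. MAS5 corrects background, combines the probes of a set and scales each array by 1 factor. Dim signals are noisy and very bright ones can be compressed. Detection calls and background settings are not stated in the sources used here, and the number of arrays limits the precision.

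Genes came from GEO's platform annotation, using probe sets with exactly 1 gene; the Entrez identifiers of all 7 members led to a current record of the same symbol. Deposited signals were used without further scaling. Signals under the 40th percentile of each array were set to it, each gene was represented by its brightest probe set, and genes were counted at 2-fold with no test. A ratio with 1 array at the floor is a lower bound in size. The steps were tested on simulated data with changes planted only in genes with a bright probe set, so changes in dim genes were not covered. Members and lists were chosen with earlier results of these data known. All members were named, with every pathway gene past 2-fold (at most 6 per list) and Phospho1, Abcc6, Spp1, Xpr1 and Nt5e. Alternatives changed scaling, floor, offset, probe-set rule and fold. Python 3.11.15, numpy 2.4.6, pandas 2.3.3 and matplotlib 3.10.9 were used.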

Additional observations from a re-analysis of the deposited data

How the results depend on the processing

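With 1 array per genotype no replicate could be left out, and no paired analysis was possible because each genotype has 1 array. The log2 ratios of the members kept their sign under all 9 settings of scaling, floor, offset and probe-set rule. With the mean over probe sets, 1 member in place of 3 was at least 2-fold higher, since Slc20a1 had a log2 ratio of 0.94 and Slc20a2 of 0.42, and Smpd3 had -2.11. Smpd3 had -2.91 with a floor at the 60th percentile and -2.98 with an offset of 16, which gave -4.46 for Entpd3. Over all genes, 1885 were lower and 1741 higher with no floor, and 1397 and 1265 with a floor at the 20th percentile. At 1.5-fold 1895 were lower and 2210 higher, and at 3-fold 342 and 217. Of the member ratios, the other 57 of 63 recomputed values moved by less than 0.32 log2 units, the robust SD per probe set over all genes. Many of these had little or no room to move. Removing the floor or lowering it to the 20th percentile left every member ratio unchanged. Averaging cannot move a gene with 1 probe set, and median or spike-in scaling shifts all genes alike. The count is thus not a measure of stability. The medians of the hormonal and mineral-binding lists stayed below 0, between -1.97 and -0.86 and between -1.77 and -0.83, and the other list medians lay between -0.28 and 0.21 and could change sign. Over all alternatives, 1 to 3 sphingomyelin genes were lower and 0 to 5 higher, where the single higher one, Sphk2, was under 2-fold with the offset and with the mean over probe sets, and 2 to 6 nucleotide enzymes were lower. Counts of lower genes were 3 to 5 for the hormonal and 4 to 6 for the mineral-binding list. Where a signal lies near the floor, as for Smpd3 and Entpd3 in Cpdm, signal over background limits how well the fold is known.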
